A study of Rattus norvegicus with 48 samples.

Results

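The comparison was of the ulna bone of placebo-treated ZDF rats with that of placebo-treated WT rats, by small RNA sequencing of 8 of the 16 ulna libraries in a series of 48. The libraries were chosen by their labels alone, as ulna bone given Placebo, with 4 from ZDF and 4 from WT rats and 1 rat per library. The question was which miRNAs differ in diabetic bone when no bone-active drug is given. ZDF rats are male Zucker Diabetic Fatty rats (fa/fa), which are homozygous for a mutation of the leptin receptor in every tissue, and WT rats are the lean Zucker controls (ZDF +/+). Both groups had surgery to make a subcritical defect at the femur midshaft at 11 weeks of age, then received a high-fat, high-carbohydrate chow and a daily subcutaneous injection of vehicle for 12 weeks, so that the bones came from rats of about 23 weeks. The ulna was homogenized as a whole frozen tissue, and the RNA of osteoblasts, osteocytes, marrow, vessels and attached muscle was not separated. In such bulk samples, fewer cells of a type and less RNA per cell cannot be told apart.

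MiRNAs are short RNAs that are cut from a hairpin precursor, which can give a mature miRNA from its 5′ arm (-5p) and from its 3′ arm (-3p). A mature miRNA pairs with messenger RNAs mainly through its seed, bases 2 to 8, so that miRNAs with the same seed share many targets. In bone, miRNAs act in osteoblast and osteoclast differentiation and in cartilage, while others such as miR-1, miR-133a and miR-206 mark muscle and miR-451, miR-142 and miR-223 mark blood and marrow cells.

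Levels are given as CPM, read counts relative to the miRNA reads of the library after scaling with edgeR's TMM factors, and a miRNA is called dysregulated at FDR < 0.2 in edgeR's quasi-likelihood test. Of 763 rat miRNAs listed, 579 had at least 1 read in the 8 libraries, 301 had reads in all 8, and 231 with a mean of at least 37.4 CPM entered the test. Of these 231, 29 were dysregulated (12.6%). In ZDF ulna 11 were upregulated (4.76% of those tested) and 18 were downregulated (7.79%), with a size of 0.90 to 2.36 on the log2 scale. Their mean levels ran from 42.4 CPM (miR-326-3p) to 19870 CPM (miR-125b-5p).

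Mature sequences were found in RefSeq (build GRCr8) for 685 of the 763 miRNAs and for 26 of the 29 dysregulated ones, and miR-150-5p, miR-328a-3p and miR-30e-3p are named without a sequence. The 26 had 23 different seeds, and no seed had dysregulated members in both directions. The 3 without a sequence could not be placed by seed. Within the 26, only 2 seeds were shared by more than 1 dysregulated miRNA. The first, shown because all of its 3 tested members rose, is that of the muscle miRNAs miR-1 and miR-206. The seed is in capitals in all sequences.
miR-1-3p: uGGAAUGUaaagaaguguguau
miR-1b: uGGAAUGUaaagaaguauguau
miR-206-3p: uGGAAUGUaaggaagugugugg

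The second is the seed of the miR-15 and miR-16 family, which restrains the cell cycle. It is shown with the 5 tested members placed by their sequence, of which miR-15b-5p and miR-195-5p were downregulated. MiR-15a-5p of this family was also tested but is not among the 5 (log2FC −0.42, SE 0.35, FDR = 0.590).
miR-15b-5p: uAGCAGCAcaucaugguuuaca
miR-195-5p: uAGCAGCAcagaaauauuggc
miR-16-5p: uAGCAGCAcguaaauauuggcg
miR-497-5p: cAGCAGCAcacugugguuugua
miR-322-5p: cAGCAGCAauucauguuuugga

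The following are the mesenchymal and cartilage miRNAs that fell, which have different seeds. MiR-214-3p and miR-199a-3p are made from hairpins 5419 bases apart on chromosome 13.
miR-214-3p: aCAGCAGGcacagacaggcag
miR-199a-3p: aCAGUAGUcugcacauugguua
miR-455-3p: gCAGUCCAcgggcauauacacu
miR-140-5p: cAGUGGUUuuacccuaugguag

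The last set is shown for its base composition, since these 5 downregulated miRNAs were at least 60.9% G and C. So were miR-214-3p (61.9%), shown above, and miR-484 (63.6%), which is not shown.
miR-324-3p: cCACUGCCccaggugcugcugg
miR-326-3p: cCUCUGGGcccuuccuccagu
miR-339-5p: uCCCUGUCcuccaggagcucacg
miR-92b-3p: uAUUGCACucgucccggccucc
miR-149-5p: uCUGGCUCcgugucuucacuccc

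The depth was 195045 to 952131 miRNA reads in the WT libraries and 116097 to 1398702 in the ZDF libraries. MiRNAs took 5.06% to 14.8% of all reads in WT and 4.87% to 21.5% in ZDF, and the shares did not differ beyond the spread (exact two-sided permutation test, p = 0.6, n = 4 per group). The shares fell into low and high values in both groups. WT 1, ZDF 1, ZDF 3 and ZDF 4 had 5.06%, 4.87%, 4.99% and 7.92%, while WT 2, WT 3, WT 4 and ZDF 2 had 14.8%, 10.7%, 14.8% and 21.5%. The numbers 1 to 4 only name the libraries within a group.

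The number of dysregulated miRNAs depended on single libraries. Without WT 1 it was 108 and without ZDF 2 it was 92. Without WT 2 or WT 3 it was 10 in each case, without ZDF 1 it was 13 and without ZDF 4 it was 7. Of the 29 miRNAs, 29 remained dysregulated without WT 1, 28 without ZDF 2, 25 without ZDF 3 and 18 without WT 4. The fewest remained without ZDF 4, which left 7, and without WT 2, which left 9. The count also rested on the filter for low counts: with filterByExpr in place of independent filtering 6 were dysregulated, and without a filter 0. Of the 579 miRNAs in the fit without a filter, 52 had an unadjusted p under 0.05 in edgeR. DESeq2 called 34 with its own independent filtering, which left 287 tested. Only miR-214-3p, miR-1-3p, miR-1b and miR-30a-3p were dysregulated in all 8 fits that left out 1 library.

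**Figure D1:**
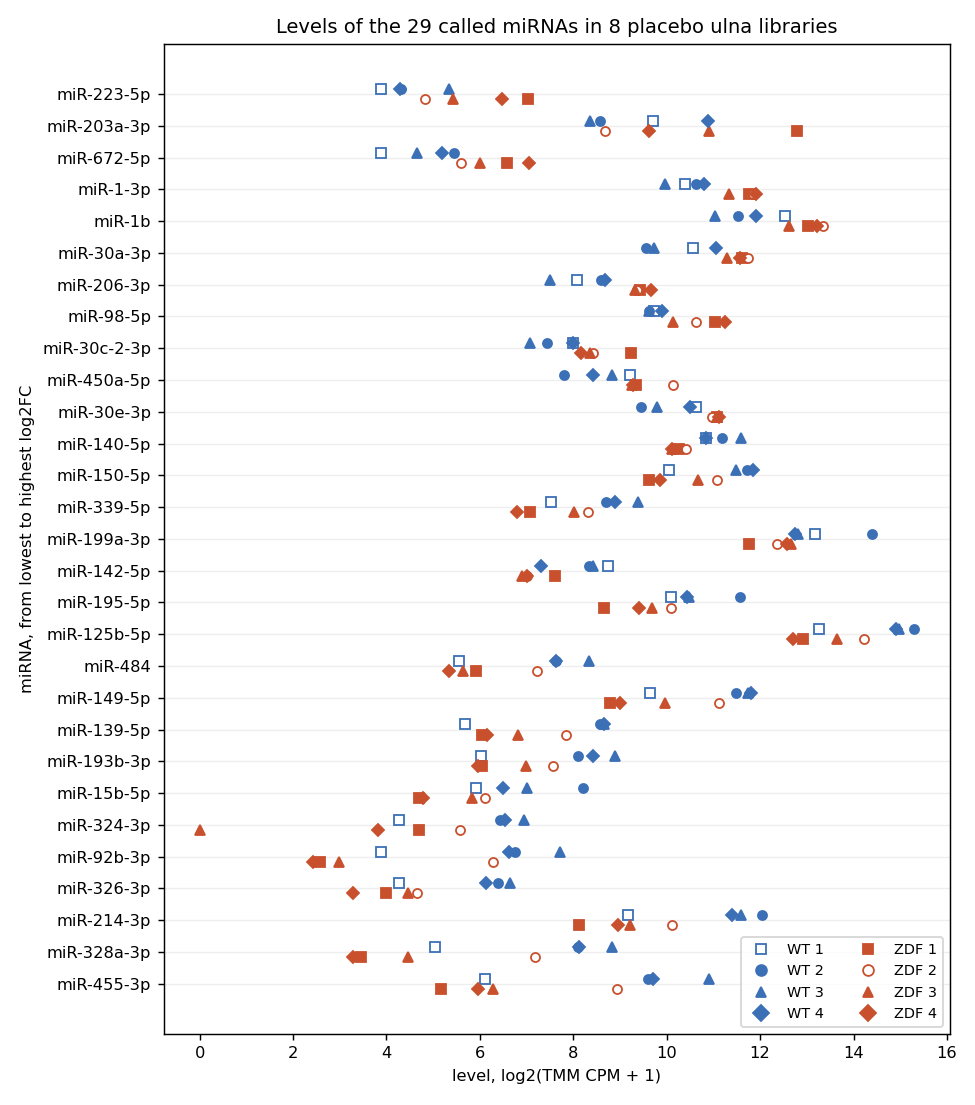
Levels of the 29 dysregulated miRNAs, as log2(TMM CPM + 1) on the x axis, in the 4 WT (blue, upper points of each row) and 4 ZDF (orange, lower points) placebo ulna libraries, ordered by log2FC, with WT 1 and ZDF 2 drawn as open symbols. Among the 18 downregulated miRNAs, WT 1 was the lowest WT library for 15 and ZDF 2 was the highest ZDF library for 16.

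The groups did not overlap for 12 of the 29. In 9 of them all ZDF libraries were above all WT libraries, and in 3 all were below. Over all 231 miRNAs tested, 16 were entirely higher in ZDF (6.93%) and 5 entirely lower (2.16%). The upregulated miRNAs were thus mostly separate between groups, while 15 of the 18 downregulated ones overlapped.

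Skeletal muscle miRNAs with the miR-1 seed were upregulated in ZDF ulna. MiR-1-3p, which promotes muscle differentiation, was measured at 1352, 1593, 1002 and 1784 CPM in WT 1 to 4 and at 3448, 3703, 2581 and 3864 CPM in ZDF 1 to 4. Every ZDF library was above every WT library, and the log2FC was 1.25 (SE 0.34, FDR = 0.104), a 2.37-fold higher level. MiR-1b was at 5908, 2935, 2100 and 3839 CPM in WT and at 8368, 10361, 6272 and 9547 CPM in ZDF (log2FC 1.23, SE 0.37, FDR = 0.104). The closest libraries of the 2 groups were WT 1 and ZDF 3. MiR-1-3p and miR-1b differ by 1 base, the mapping allowed 1 mismatch, and their counts are therefore uncertain as separate measurements.

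MiR-206-3p, which marks regenerating and slow muscle, was at 269, 384, 181 and 410 CPM in WT and at 684, 660, 642 and 805 CPM in ZDF. The ZDF libraries lay close together and above all WT libraries (log2FC 1.16, SE 0.36, FDR = 0.104). The call was kept in 6 of the 8 fits without 1 library.

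All lists of miRNAs used here and below were chosen with earlier results of these data known, so their counts are no independent evidence. The list of skeletal muscle miRNAs held 15 names, of which 14 were detected and 9 tested. Of the 9, 3 were upregulated, 0 were downregulated and 6 were not dysregulated, against 4.76% upregulated over all 231 tested. The 9 had 7 positive values and a median log2FC of 0.54, against 107 positive values and −0.06 over all 231. MiR-208b-3p, a miRNA of slow muscle, was at 119 ± 63.3 CPM in WT and 238 ± 79.2 CPM in ZDF (SD, n = 4) and missed the threshold (log2FC 1.01, SE 0.44, FDR = 0.226). MiR-133a-5p had a log2FC of 0.54 (SE 0.43, FDR = 0.582), and miR-499-5p of 0.23 (SE 0.46, FDR = 0.907). MiR-133a-3p was the most abundant miRNA of the ulna, at 53098, 117731, 233797 and 407321 CPM in WT and at 92450, 449894, 94409 and 68394 CPM in ZDF. It varied more within each group than between them (log2FC −0.20, SE 0.58, FDR = 0.926). It is encoded 2453 bases from miR-1-3p on chromosome 18, and miR-133b-3p, 3882 bases from miR-206-3p on chromosome 9, had a log2FC of −0.17 (SE 0.58, FDR = 0.926). Without miR-133a-3p, the summed level of the muscle list was 7516 to 13058 CPM in WT and 12077 to 24824 CPM in ZDF. With it, the sums were 62692 to 420379 CPM in WT and 84328 to 474718 CPM in ZDF, and they overlapped widely. The part of muscle attached to the bone in the miR-1 and miR-206 result was not tested. When TMM factors were computed without the muscle list, 28 of the 29 miRNAs remained dysregulated.

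Of the 4 tested 3′ arms of the miR-30 family, 3 were upregulated, and miR-30c-1-3p was not dysregulated (log2FC −0.15, SE 0.50, FDR = 0.926). MiR-30 acts in adipocyte and muscle differentiation through its 5′ arms, which carry another seed. MiR-30a-3p was at 1502, 751, 847 and 2115 CPM in WT and at 3149, 3415, 2505 and 3033 CPM in ZDF. All ZDF libraries were higher (log2FC 1.21, SE 0.37, FDR = 0.104). MiR-30e-3p was at 1571, 697, 885 and 1447 CPM in WT and at 2176, 2008, 2149 and 2218 CPM in ZDF (log2FC 0.90, SE 0.35, FDR = 0.182). In ZDF its level was nearly the same in all 4 rats, with an SD of 91.3 CPM against 425 in WT. No sequence was found for miR-30e-3p, so whether its reads can be told apart from those of miR-30a-3p at 1 mismatch was not checked.

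MiR-30c-2-3p was at 256, 173, 134 and 253 CPM in WT and at 604, 343, 328 and 286 CPM in ZDF, again without overlap but with a small gap between WT 1 and ZDF 4 (log2FC 0.94, SE 0.38, FDR = 0.193). It was dysregulated in 2 of the 8 fits without 1 library. None of the 5′ arms of the 3 upregulated miRNAs was dysregulated. MiR-30a-5p had a log2FC of 0.75 (SE 0.41, FDR = 0.345), miR-30e-5p of 0.33 (SE 0.38, FDR = 0.736) and miR-30c-5p of −0.73 (SE 0.51, FDR = 0.507). Of the 9 tested members of the family 3 were upregulated, against 4.76% of all tested miRNAs, with a median log2FC of 0.33.

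Among the let-7 family, which favours differentiation over growth, miR-98-5p was the member that passed the test. It was at 845, 785, 788 and 956 CPM in WT and at 2106, 1576, 1116 and 2434 CPM in ZDF. The WT libraries lay close together and below all ZDF libraries (log2FC 1.10, SE 0.35, FDR = 0.104). Of 13 tested members of the let-7 and miR-98 list, 1 was upregulated and 12 were not dysregulated, with a median log2FC of −0.15. Of all tested miRNAs, 4.76% were upregulated. Let-7f-5p, encoded 611 bases from miR-98-5p on chromosome X, had a log2FC of 0.59 (SE 0.36, FDR = 0.437), and let-7i-5p, the most abundant member, of 0.54 (SE 0.36, FDR = 0.495).

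MiR-672-5p was the least abundant upregulated miRNA without overlap of the groups, at 13.7, 42.7, 24.1 and 35.8 CPM in WT and at 94.8, 47.6, 62.8 and 132 CPM in ZDF (log2FC 1.47, SE 0.50, FDR = 0.131). It is known to favour osteoblast differentiation. These levels rest on 3 to 49 reads per library, and the nearest libraries, WT 2 and ZDF 2, had 18 and 49 reads. MiR-450a-5p was at 594, 223, 453 and 340 CPM in WT and at 649, 1129, 614 and 621 CPM in ZDF (log2FC 0.91, SE 0.38, FDR = 0.1997). Its gap between WT 1 and ZDF 3 was small, and the call was kept in 1 of 8 fits without 1 library. The miRNAs encoded within 10000 bases of it on chromosome X, miR-542, miR-351, miR-503 and miR-322, had log2FC from −1.21 to 0.16 in 6 tested arms and none was dysregulated.

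The remaining upregulated miRNAs, miR-223-5p and miR-203a-3p, had overlapping groups. MiR-223-5p, the minor arm of a granulocyte miRNA, rose by 1.57 on the log2 scale (SE 0.56, FDR = 0.148), while the major arm miR-223-3p had a log2FC of −0.17 (SE 0.36, FDR = 0.910). MiR-203a-3p, known from keratinocytes, had a log2FC of 1.57 (SE 0.65, FDR = 0.1997). It was at 7131 CPM in ZDF 1 and at 412 to 1926 CPM in the other ZDF libraries, against 327 to 1900 CPM in WT, so that 1 library carried most of the difference. With ZDF 1 left out its log2FC was 0.26 (FDR = 0.951, against 0.000556 to 0.951 over all alternatives).

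MiR-455-3p, miR-328a-3p and miR-214-3p were each downregulated by more than 2 on the log2 scale. MiR-214-3p, a miRNA of mesenchymal cells that inhibits osteoblast activity, was at 575, 4227, 3073 and 2691 CPM in WT and at 279, 1112, 593 and 493 CPM in ZDF. It was 4.24-fold lower in ZDF (log2FC −2.08, SE 0.50, FDR = 0.0828), the lowest FDR of all miRNAs. WT 1 lay within the range of the ZDF libraries, and the remaining WT libraries were above all of them. Its neighbour miR-199a-3p was at 9306, 21680, 7180 and 6913 CPM in WT and at 3453, 5271, 6509 and 6140 CPM in ZDF (log2FC −1.08, SE 0.40, FDR = 0.148). Here WT 1 was above the ZDF range, and the gap between WT 4 and ZDF 3 was 6913 against 6509 CPM. Without WT 2 its log2FC was −0.53 (FDR = 0.492, against 0.0375 to 0.864 over all alternatives).

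MiR-199a-5p, the other arm, was at 14273, 17895, 15042 and 12943 CPM in WT and at 10554, 11497, 8023 and 6501 CPM in ZDF. The groups did not overlap, but it did not pass the test (log2FC −0.72, SE 0.34, FDR = 0.281). Of the 3 tested members of this mesenchymal list, chosen with earlier results known, 2 were downregulated, against 7.79% of all tested miRNAs. Its summed level was 22553 to 43801 CPM in WT and 13138 to 17884 CPM in ZDF. The ratio of miR-199a-3p to miR-214-3p was not constant: on the log2 scale it was 1.22 to 2.36 in WT 2 to 4, 4.01 in WT 1, 2.24 in ZDF 2 and 3.45 to 3.64 in the other ZDF libraries.

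Of the cartilage miRNAs, all 4 tested had negative log2FC and 2 were downregulated, against 124 and 18 of all 231 tested. MiR-455-3p, which acts in chondrocyte differentiation, was at 68.5, 778, 1919 and 836 CPM in WT and at 34.9, 492, 76.7 and 61.6 CPM in ZDF. Its log2FC was −2.36 (SE 0.72, FDR = 0.104), and −3.98 without ZDF 2. WT 1 was again within the ZDF range, and ZDF 2 was far above the other ZDF libraries. MiR-140-5p, the best known miRNA of cartilage, was at 1836, 2330, 3074 and 1830 CPM in WT and at 1238, 1372, 1109 and 1114 CPM in ZDF. The groups were separate, with less spread in ZDF than in WT (log2FC −0.91, SE 0.34, FDR = 0.148). The call of miR-140-5p was kept in 4 of the 8 fits without 1 library. Its more abundant other arm miR-140-3p, at 27182 ± 11507 CPM in WT and 14350 ± 6011 CPM in ZDF (SD, n = 4), had a similar change and missed the threshold (log2FC −0.92, SE 0.39, FDR = 0.218). With the reads of added control RNAs as library size, the log2FC of miR-140-5p was 0.03.

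Of 10 tested members of the miR-15 and miR-16 family 2 were downregulated, 8 had negative log2FC, and the median was −0.50. Over all 231 tested, 18 were downregulated (7.79%) and 124 had negative log2FC. The 10 include 3′ arms as well as 5′ arms. MiR-15b-5p was at 59.4, 294, 127 and 88.7 CPM in WT and at 25.0, 68.0, 55.8 and 26.4 CPM in ZDF (log2FC −1.65, SE 0.52, FDR = 0.104). WT 1 was below ZDF 2, and the other WT libraries were above all ZDF libraries. MiR-195-5p was at 1096, 3048, 1415 and 1388 CPM in WT and at 404, 1086, 823 and 673 CPM in ZDF, with only a narrow gap between WT 1 and ZDF 2 (log2FC −1.21, SE 0.40, FDR = 0.125). Without WT 2 the log2FC of miR-15b-5p was −1.07. MiR-322-3p and miR-503-3p had positive log2FC, 0.05 (SE 0.38) and 0.16 (SE 0.53), and were not dysregulated. MiR-497-5p, encoded 337 bases from miR-195-5p on chromosome 10, had a log2FC of −0.73 (SE 0.34, FDR = 0.279), and miR-16-5p, 146 bases from miR-15b-5p on chromosome 2, of −0.45 (SE 0.38, FDR = 0.590).

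MiR-328a-3p and miR-326-3p were among the less abundant downregulated miRNAs. MiR-328a-3p was at 32.0, 275, 454 and 277 CPM in WT and at 9.98, 144, 20.9 and 8.80 CPM in ZDF (log2FC −2.28, SE 0.69, FDR = 0.104). Its values in ZDF 1, ZDF 3 and ZDF 4 rest on 2, 3 and 2 reads, and without ZDF 2 its log2FC was −4.36. MiR-326-3p was at 18.3, 83.0, 99.8 and 68.9 CPM in WT and at 15.0, 24.3, 20.9 and 8.80 CPM in ZDF (log2FC −1.91, SE 0.56, FDR = 0.104). WT 1, with 4 reads, lay in the ZDF range, and the other WT libraries held 35 to 58 reads.

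The other downregulated miRNAs had overlapping groups. The marrow and lymphocyte miRNAs among them were miR-142-5p (log2FC −1.13, SE 0.39, FDR = 0.143) and miR-150-5p (−0.999 on the log2 scale, SE 0.42, FDR = 0.1997). Of 9 tested myeloid and lymphoid miRNAs 2 were downregulated and 1 upregulated, against 7.79% and 4.76% of all tested miRNAs. The median log2FC of the 9 was −0.36. The summed level of this list was 8972 to 12118 CPM in WT and 7650 to 8358 CPM in ZDF. MiR-125b-5p, the most abundant of the 29 and a regulator of osteoblast differentiation, had a mean of 28194 ± 12968 CPM in WT and 11546 ± 5686 CPM in ZDF (SD, n = 4; log2FC −1.29, SE 0.43, FDR = 0.130). The rest were miR-149-5p, miR-139-5p, miR-193b-3p, miR-324-3p, miR-92b-3p, miR-484 and miR-339-5p, with log2FC from −1.86 to −1.07 and FDR from 0.148 to 0.193. MiR-92b-3p was measured by 1 read in each of ZDF 1, ZDF 3 and ZDF 4, and by 79 reads in ZDF 2, without which its log2FC was −4.29. Without ZDF 2 those of miR-324-3p, miR-149-5p and miR-484 were −2.55, −2.04 and −1.97. The other tested miRNAs placed by sequence in the seed of miR-92b-3p, miR-92a-3p, miR-25-3p and miR-363-3p, were not dysregulated.

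Of the 12 dysregulated miRNAs whose other arm was tested, none had a dysregulated other arm, and 8 of the 13 other arms had the same sign. Of 16 pairs of a dysregulated miRNA and a tested neighbour within 10000 bases on the same strand, 10 had the same sign. The only neighbours that were both dysregulated were miR-214-3p and miR-199a-3p. With 12.6% of all 231 tested miRNAs dysregulated, counts this small do not set other arms or neighbours apart.

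Beside the mesenchymal and cartilage miRNAs, 3 further lists of bone and metabolic miRNAs were examined. The list of osteoblast differentiation does not hold miR-214-3p, miR-672-5p or miR-125b-5p. Of its 15 tested miRNAs 0 passed in edgeR, with a median log2FC of −0.02. Since 12.6% of all tested miRNAs passed in either direction, the small counts in these 3 lists do not set them apart. MiR-29a-3p, which raises osteoblast differentiation, had a log2FC of −0.16 (SE 0.34, FDR = 0.912), and miR-218a-5p of 0.28 (SE 0.33, FDR = 0.749). Of 11 tested miRNAs of osteoclast differentiation only miR-223-5p passed, and the median was 0.15. MiR-21-5p, which promotes osteoclast formation, had a log2FC of 0.27 (SE 0.35, FDR = 0.753). Of 12 tested miRNAs of adipocytes and insulin sensitivity 2 were downregulated, miR-326-3p and miR-328a-3p, against 12.6% of all tested miRNAs in either direction, and the median was −0.09. MiR-103-3p and miR-107-3p, which lower insulin sensitivity, had log2FC of 0.21 (SE 0.32, FDR = 0.822) and 0.23 (SE 0.34, FDR = 0.816).

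Markers of other tissues were present in both groups. With 12.6% of all tested miRNAs dysregulated, a count of 0 in lists this short does not set them apart. The erythroid miRNAs summed to 9612 to 13344 CPM in WT and 8798 to 11163 CPM in ZDF, with 0 of 4 tested dysregulated. The endothelial list had 0 of 4, and miR-126a-3p, its main member, was at 13698 to 16443 CPM in WT and 16517 to 30962 CPM in ZDF (log2FC 0.50, SE 0.34, FDR = 0.495). The smooth muscle miRNAs miR-143 and miR-145 had 0 of 4. The liver and pancreas list summed to 87.4 to 201 CPM in WT and 89.8 to 348 CPM in ZDF, and 5 of its 16 names were at 0 reads in all 8 libraries. The epithelial list had 2 tested, miR-203a-3p and miR-205, and 4 of its 14 names at 0, and of the neural list 2 were tested and 0 dysregulated. Bone has no miRNA found in it alone, so the label ulna bone could not be checked against a defining marker.

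The 10 most abundant miRNAs were miR-133a-3p, miR-26a-5p, miR-143-3p, let-7i-5p, miR-99a-5p, miR-29a-3p, miR-181a-5p, miR-378a-3p, miR-30a-5p and miR-101a-3p. None of the 10 was dysregulated, against 12.6% of all tested miRNAs, which does not set them apart. MiR-133a-3p alone had a mean of 202987 ± 155389 CPM in WT and 176287 ± 182788 CPM in ZDF (SD, n = 4). MiR-26a-5p, which acts in osteoblast differentiation, was at 61089, 36702, 46543 and 57528 CPM in WT and at 105155, 70565, 69146 and 82096 CPM in ZDF. It was higher in every ZDF library but did not pass the test (log2FC 0.70, SE 0.35, FDR = 0.315). In all, 9 tested miRNAs outside the calls had separate groups. Of these, miR-145-3p had a log2FC of 0.60 (SE 0.35, FDR = 0.405) and miR-676 of 0.54 (SE 0.36, FDR = 0.495).

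The dysregulated miRNAs differed in base composition. The 16 downregulated miRNAs with a sequence had 33.3% to 72.7% G and C (median 56.2%), the 10 upregulated ones 27.3% to 50% (median 42.2%), and the 186 tested and not dysregulated 22.7% to 77.3% (median 45.5%). All 10 dysregulated miRNAs with more than 50% G and C were downregulated. The median log2FC fell from 0.27 in the 46 tested miRNAs with at most 40% G and C to −0.36 in the 33 with more than 55%. Across the 212 tested miRNAs with a sequence, the log2FC correlated with G and C content (Pearson r = −0.37, Spearman rho = −0.31, given without a test since miRNAs of the same libraries are not independent).

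**Figure D2:**
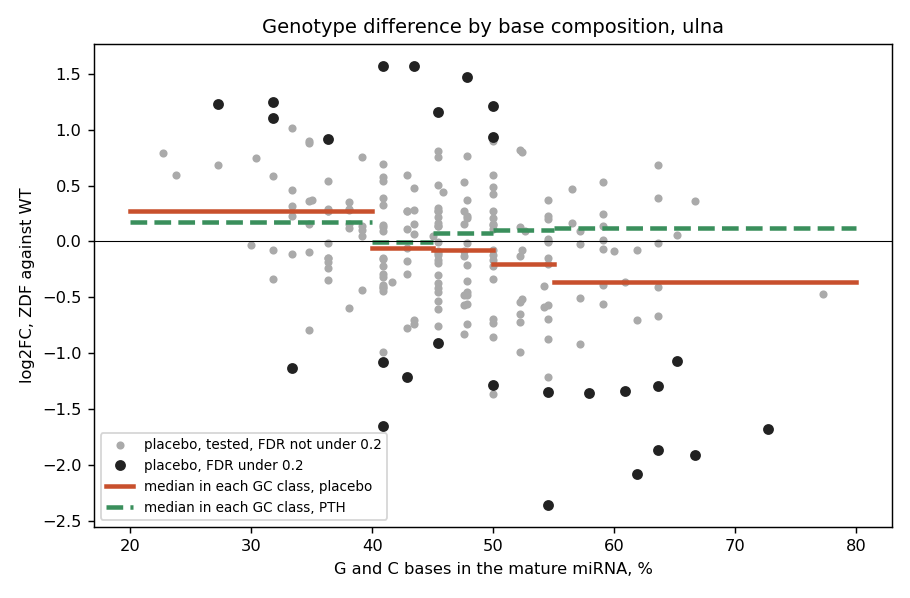
Log2FC of ZDF against WT placebo ulna (y axis) by the percentage of G and C in the mature miRNA (x axis) for 212 tested miRNAs, with those at FDR < 0.2 in black, and the median log2FC of each GC class under placebo (solid orange) and under PTH (dashed green). Under placebo the medians fall from 0.27 to −0.36, while under PTH the class above 55% has a median of 0.12.

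The same measure was taken in each library, as the slope of the level relative to the mean of the 8 libraries against G and C content. Per 10 percentage points it was 0.20, 0.33 and 0.34 on the log2 scale in WT 2, WT 3 and WT 4, and −0.32 in WT 1. In ZDF it was −0.14, −0.25 and −0.16 in ZDF 1, ZDF 3 and ZDF 4, and −0.00 in ZDF 2. The 4 libraries with a low share of miRNA reads thus had the 4 most negative slopes, WT 1 among them.

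**Figure D3:**
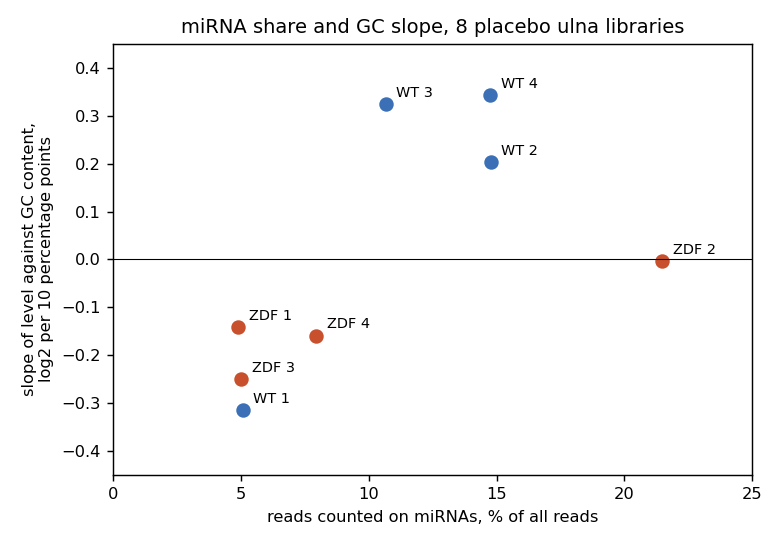
Slope of the miRNA level against G and C content (y axis, log2 per 10 percentage points) and the share of reads counted on miRNAs (x axis, %) in the 8 placebo ulna libraries, WT in blue and ZDF in orange. WT 1 lies with ZDF 1, ZDF 3 and ZDF 4 at low shares and negative slopes, apart from the other WT libraries.

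The comparison was also made within libraries of similar share. Among the 4 libraries under 9% (WT 1 against ZDF 1, ZDF 3 and ZDF 4), 14 of the 18 downregulated miRNAs were lower in ZDF, with a median difference of −0.39 on the log2 scale. All 11 upregulated miRNAs were higher there, with a median of 1.08. Among the 4 libraries over 9% (ZDF 2 against WT 2, WT 3 and WT 4), all 18 were lower (median −0.87) and 10 of the 11 were higher (median 1.06), the exception being miR-203a-3p. Of all 231 tested miRNAs, 117 were lower in ZDF under 9% (median −0.02) and 96 over 9% (median 0.12). The 29 were chosen in these same libraries, so their direction is no independent evidence, and with 1 library on one side neither comparison allows a test.

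Of single miRNAs, miR-142-5p differed by −1.56 within the low shares and by −1.02 within the high shares. MiR-206-3p differed by 1.39 and 1.11, miR-195-5p by −0.85 and −0.74, and miR-199a-3p by −0.85 and −0.96. MiR-455-3p differed by −0.31 and −1.13 and miR-214-3p by −0.41 and −1.55. Neither difference of miR-455-3p reached its log2FC over all libraries, −2.36. Its highest levels were in WT 2 to 4, while WT 1 lay within the range of ZDF 1, ZDF 3 and ZDF 4. MiR-139-5p, miR-193b-3p and miR-484 were higher in ZDF than in WT 1 by 0.66, 0.31 and 0.09 and lower within the high shares.

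With the log2 share of miRNA reads as a covariate, 51 miRNAs were dysregulated (23 up, 28 down), 27 of the 29 among them. With offsets that took out the straight line against G and C content in each library, 15 were dysregulated (7 up, 8 down), against 26 in the same miRNAs without offsets. Of the 29, 3 had no sequence and were not in these fits, and 25 were dysregulated there without offsets. With the offsets 13 remained: miR-214-3p, miR-455-3p, miR-15b-5p, miR-195-5p, miR-142-5p, miR-199a-3p, miR-125b-5p, miR-140-5p, miR-30a-3p, miR-206-3p, miR-672-5p, miR-223-5p and miR-30c-2-3p. The calls of miR-1-3p and miR-1b (FDR = 0.298 for both), miR-98-5p (FDR = 0.418), miR-326-3p (FDR = 0.255) and the other miRNAs over 55% G and C except miR-214-3p were lost, as were those of miR-139-5p and of miR-203a-3p, whose log2FC was 1.38 with the offsets. MiR-450a-5p had already missed the threshold in the same miRNAs without offsets (FDR = 0.210). Such offsets also take out any true difference between genotypes that follows base composition. Whether RNA quality, library preparation or the genotype moved the slopes was not tested.

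The same genotype comparison was made in the ulna of 8 rats given PTH (parathyroid hormone) for 12 weeks, which share no library with the placebo rats. The PTH libraries held 41627 to 282285 miRNA reads in WT and 191926 to 971036 in ZDF. MiRNAs took 1.58% to 7.23% of all reads in WT and 6.79% to 12.6% in ZDF. WT 1 PTH and WT 2 PTH had fewer miRNA reads and lower shares than any placebo library. The part of depth and share in the differences under PTH was not tested. Under PTH 14 of 261 tested miRNAs were dysregulated (5.36%). Of the 29, 26 were tested there and 3 were dysregulated. MiR-98-5p was at 784, 551, 499 and 529 CPM in WT and at 1913, 2656, 2391 and 1547 CPM in ZDF under PTH (log2FC 1.86, SE 0.50, FDR = 0.0157). MiR-206-3p was at 431, 992, 188 and 403 CPM in WT and at 654, 3047, 1033 and 613 CPM in ZDF (log2FC 1.46, SE 0.50, FDR = 0.0940). MiR-142-5p was at 451, 744, 239 and 97.8 CPM in WT and at 55.6, 50.9, 189 and 225 CPM in ZDF (log2FC −1.45, SE 0.53, FDR = 0.155). Among the 29, miR-98-5p and miR-140-5p had separate groups under both treatments. MiR-140-5p was at 1469, 1625, 2279 and 1442 CPM in WT and at 427, 833, 933 and 1399 CPM in ZDF under PTH. Without ZDF 4 PTH the count under PTH was 58, without WT 4 PTH 35 and without WT 2 PTH 29, while without WT 1 PTH it was 9 and without ZDF 1 or ZDF 2 PTH 8.

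Of the 11 upregulated miRNAs 10 had a positive log2FC under PTH, with a median of 0.63, and of the 18 downregulated ones 12 had a negative log2FC, with a median of −0.25. The median of all 261 tested under PTH was 0.08. MiR-140-5p and miR-339-5p had nearly the same log2FC under both treatments, at −0.93 (SE 0.48) and −0.99 (SE 0.54) under PTH, but did not pass the test there. Under PTH the correlation of the log2FC with G and C content was near 0 (Pearson r = −0.02 across 238 miRNAs), where the slopes ran from −0.41 to 0.25 in WT and from −0.12 to 0.10 in ZDF.

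**Figure D4:**
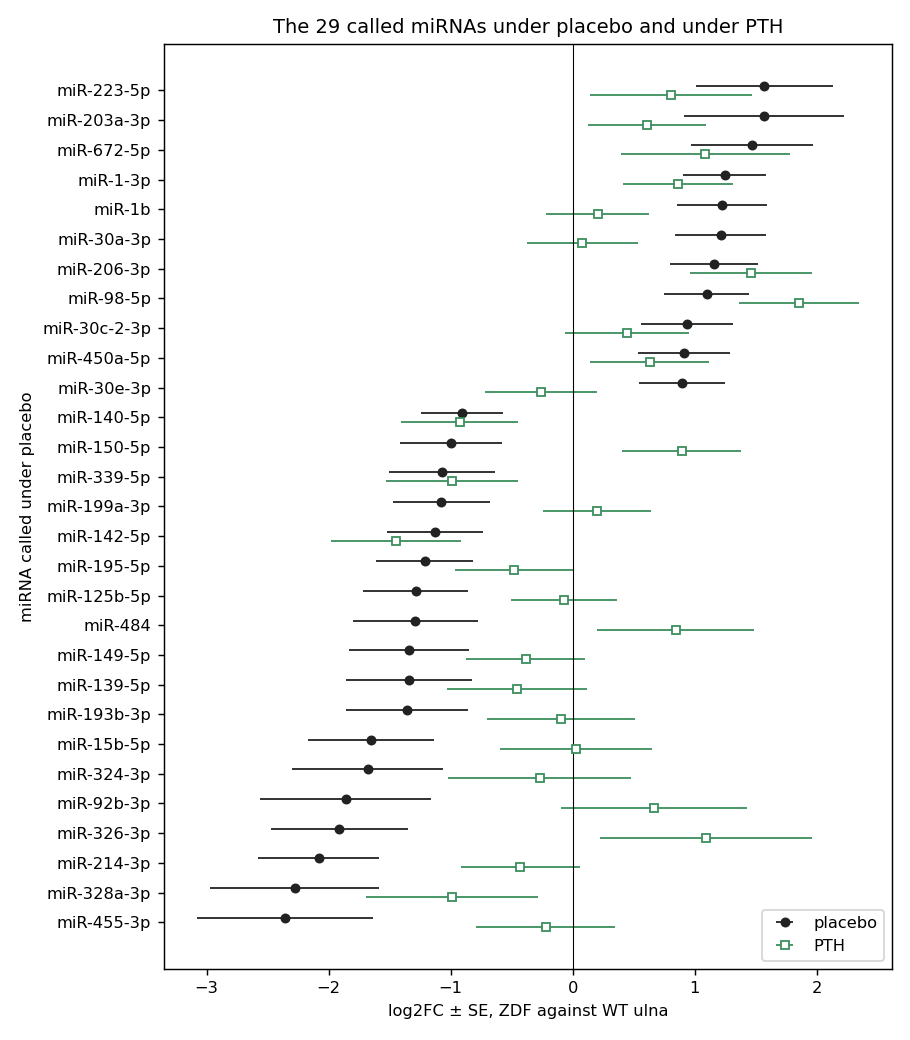
Log2FC of ZDF against WT ulna with its SE (x axis) for the 29 miRNAs dysregulated under placebo (y axis), under placebo (filled circles) and under PTH (open squares), each from 4 rats per group. Of the 11 upregulated miRNAs 10 lie above 0 under PTH, and of the 18 downregulated ones 12 lie below 0.

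The difference between the 2 genotype effects was tested by an interaction term over all 16 ulna libraries. It was significant for 8 of 264 tested miRNAs (3.03%), 5 of which were downregulated under placebo. The placebo libraries that selected the 29 also enter the interaction, so this overlap is no independent evidence. MiR-455-3p fell by 2.36 on the log2 scale under placebo and had a log2FC of −0.22 (SE 0.57) under PTH, a difference of 2.14 (SE 0.70, FDR = 0.113). Its level under PTH was 98.0, 55.1, 86.5 and 147 CPM in WT and 53.3, 66.5, 94.5 and 136 CPM in ZDF, so that neither group reached the 778 to 1919 CPM of WT 2 to 4 under placebo. MiR-150-5p had a log2FC of 0.90 (SE 0.49) under PTH, a difference of 2.00 (SE 0.65, FDR = 0.113). MiR-326-3p, miR-92b-3p and miR-484 also differed, by 3.02, 2.54 and 2.16. Without WT 1 placebo the interaction called 40 miRNAs, without ZDF 2 placebo 29 and without WT 4 PTH 14. Without any other placebo library it called 1 or 2, and without WT 1, WT 2, WT 3, ZDF 1 or ZDF 4 of the PTH rats 2 to 4.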

How the data were processed

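Small RNA of 8 ulna bones was sequenced, 4 from placebo-treated ZDF and 4 from placebo-treated WT rats, and 8 ulna libraries of PTH-treated rats served as a second comparison. The authors used cutadapt 3.3 to remove adapters and reads shorter than 17 nt. Bowtie 1.3.0 and miRDeep2 2.0.1.2 then aligned the reads, first against Rnor 6.0 with 2 mismatches allowed and next against miRBase 22.1 with 1 mismatch allowed. The deposited raw counts of each mature miRNA, which are not normalized, were used in all tests. The deposited RPM values, scaled by the authors to all reads of a library, were used only to recover the share of miRNA reads. Added control RNAs were left out of the miRNA counts.

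Tests were run with edgeR 4.0.16 under R 4.3.3 (quasi-likelihood test, legacy = TRUE, robust = FALSE, TMM), with only the compared groups in a fit. MiRNAs with at least 1 read were fitted, and independent filtering over 50 quantiles of mean CPM up to 0.95 took the one with most miRNAs at FDR < 0.2, which favours a higher count of calls. FDR is the Benjamini-Hochberg adjusted p. The prior degrees of freedom were 16.3 and the common biological coefficient of variation was 0.457. Single values were compared by exact two-sided permutation of log2 values, for which the smallest p of 4 against 4 is 0.0286 and of 3 against 4 is 0.0571. The script was tested on simulated data.

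The comparison, the miRNA lists and the rule for named miRNAs were chosen with earlier results of these data known. The rule gave every dysregulated miRNA, with values in each library for those without overlap and the 10 with the lowest FDR, list members of at least 100 CPM, the 10 most abundant, other arms and same seeds, up to 5 of at least 100 CPM with separate groups outside the calls, and up to 5 with the lowest p in the interaction. Alternatives were RLE factors, totals of miRNA reads without TMM, added controls, TMM without muscle miRNAs, DESeq2 1.42.0, other filters, FDR < 0.05, robust = TRUE, legacy = FALSE, equal depth, summed near-identical miRNAs, all ulna groups in 1 fit, a linear scale, a pseudocount of 10 in place of 1 CPM, and each replicate left out. The share covariate and the GC offsets were added after the data were examined. The labels give no replicate numbers, so samples were not paired. Serum libraries were not used here.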

Additional observations from a re-analysis of the deposited data

Results flagged for a closer look

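Within the groups of 4 placebo libraries, 8 of 100 sets of values had 1 library far from the others. This was judged by Dixon's ratio of its gap to the whole range, for which chance gives about 1 in 20. The sets come from the same libraries and are not independent, so the count was not tested against that rate. WT 1 stood apart for 4 miRNAs: it was low for miR-149-5p (794 CPM, others 2845 to 3582) and miR-139-5p (50.2 CPM, others 379 to 405), and high for miR-101a-3p (53893 CPM, others 9755 to 12747) and miR-3084a-3p (27.4 CPM, others 3.97 to 5.16). ZDF 2 stood apart for miR-92b-3p (76.7 CPM, others 4.40 to 6.98), for miR-450a-5p (1129 CPM, others 614 to 649) and for its depth (1398702 miRNA reads, others 116097 to 209490). ZDF 1 stood apart for miR-142-5p (195 CPM, others 119 to 128).

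The genotype difference itself differed between PTH and placebo for 8 miRNAs by the interaction term (FDR < 0.2). The log2FC under PTH minus that under placebo was 2.09 for let-7g-5p, −3.33 for miR-3084a-3p, 2.00 for miR-150-5p, 2.96 for miR-196a-5p, 2.14 for miR-455-3p, 3.02 for miR-326-3p, 2.54 for miR-92b-3p and 2.16 for miR-484. For miR-326-3p, miR-92b-3p and miR-196a-5p at least 1 WT library under PTH had no reads. Let-7g-5p had a log2FC of −0.34 under placebo and 1.68 (FDR = 0.0337) under PTH.

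The ulna libraries held reads of the RNAs added as extraction controls, 8 to 36 in each placebo library, although the methods describe their addition to serum. These reads enter no comparison.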

How the results depend on the processing

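The count of 29 in the placebo comparison kept within 1.5 times (21 to 42) with RLE factors, totals of miRNA reads, TMM without muscle miRNAs, DESeq2, filterByExpr followed by independent filtering, robust = TRUE, legacy = FALSE, equal depth, summed near-identical miRNAs and all ulna groups in 1 fit. It was 0 with added controls as library size, which moved the median log2FC to 0.70 (29 at unadjusted p under 0.05 in edgeR), 0 without a filter, 6 with filterByExpr, 2 at FDR < 0.05 with the filter chosen anew, 51 with the share covariate and 15 with GC offsets. Leaving out 1 library gave 7 (without ZDF 4) to 108 (without WT 1). Of the 29 miRNAs, 28 kept their sign in every alternative, and the exception was miR-140-5p with added controls (log2FC 0.0267), under which miR-199a-5p also changed sign (0.10). With RLE factors or DESeq2 the split was 10 up and 24 down, with summed near-identical miRNAs 10 up and 32 down, and at equal depth 11 up and 31 down.

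The count of 14 under PTH was 30 with RLE factors, 171 with added controls, 25 with DESeq2, 7 with filterByExpr, 9 with filterByExpr followed by independent filtering, 6 at FDR < 0.05, 23 at equal depth and 8 to 58 with 1 library left out. The interaction count of 8 was 2 with RLE factors, totals of miRNA reads or TMM without muscle miRNAs, 1 with DESeq2 or filterByExpr followed by independent filtering, 4 with legacy = FALSE and 15 with summed near-identical miRNAs. It was 0 with added controls, no filter, filterByExpr or FDR < 0.05 (19, 42, 13 and 42 at unadjusted p under 0.05 in edgeR), and 1 to 40 with 1 library left out. The cause was not tested.

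Levels under about 40 CPM rest on fewer than 10 reads in the shallow libraries. The SDs given are between libraries, and the SEs come from the edgeR fit, which includes variation between rats. Reads carry no molecular identifiers. No paired analysis was possible because the labels carry no replicate numbers.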
